A study of Bos taurus with 6 samples.

Results

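The genes of matrix remodelling were described in longissimus thoracis (LT) muscle of Korean cattle steers with a high or a low number of fine marbling particles (NFMP). They are 10 of the 22839 gene symbols (23015 rows) in the count tables, listed by family and not by a measured value. These are the matrix metalloproteinases MMP2, MMP9 and MMP14, the tissue inhibitors TIMP1, TIMP2, TIMP3 and TIMP4, and the lysyl oxidases LOX, LOXL1 and LOXL2. The list leaves out other metalloproteinases and lysyl oxidase-like genes, and it was chosen with earlier results of these data known. The libraries came from 3 high-NFMP steers (3-8, 10-8 and 10-9, aged 32.5, 33.8 and 34.5 months) and 3 low-NFMP steers (3-1, 3-3 and 10-16, aged 37.8, 33.7 and 35.4 months), with 1 library per steer. All were Hanwoo (Korean native cattle) steers on commercial feed, and the groups were set by NFMP and not by a treatment. Their ages differed too, since the oldest steer (37.8 months) was low-NFMP and the youngest (32.5 months) high-NFMP. By the paper's values for the sequenced steers, marbling score and rib eye area were also higher in the high-NFMP group. Fine marbling was therefore not compared alone. Fine marbling is intramuscular fat spread over a muscle section as many small particles, and the comparison asks whether expression of these genes differed with it. The libraries held 16283873, 16530745 and 16798460 counts in the high-NFMP steers and 17179629, 16791858 and 17192750 in the low-NFMP steers. Reads on the 10 genes made up 0.00997% to 0.0163% of a library.

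Matrix metalloproteinases are zinc enzymes that cut collagens and other proteins of the extracellular matrix, and fat cells need such cutting to expand within a collagen network. The tissue inhibitors bind the active enzymes and block them, and TIMP2 also takes part in activation, because it holds the proform of MMP2 at the cell surface next to MMP14. Lysyl oxidases act in the other direction and crosslink collagen and elastin, which stiffens the connective tissue between muscle fibres.

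The tissue label was checked against markers of cell types. All 9 skeletal muscle fibre markers were counted, with ACTA1 between 249724 and 495948 normalized counts in a steer and TTN the gene with the most counts. Normalized counts here are counts after each library was brought to a common effective size. Of the 7 adipocyte markers, all were counted, and their sum set 1 library apart. It was 8821 normalized counts in high-NFMP steer 3-8, against 3625 and 2872 in high-NFMP steers 10-8 and 10-9 and 3208, 3797 and 2612 in low-NFMP steers 3-1, 3-3 and 10-16. FABP4, a fatty acid binding protein of fat cells and the gene of that list with the most counts, had 4945 in steer 3-8 and between 1019 and 2044 in the others. In bulk tissue, a change in the number of cells of a type and a change in RNA per cell cannot be told apart.

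No difference between the high- and low-NFMP groups passed the test in any of the genes that could be tested. Of the 10, 7 had enough counts to be tested (MMP2, the 4 tissue inhibitors, LOX and LOXL2), and 0 of these 7 had both a fold change above 2 and an unadjusted p below 0.05 in edgeR's quasi-likelihood test, a threshold that 3.9% of all 15039 tested rows passed. At an unadjusted p below 0.05 alone, 0 of the 7 passed, against 11.5% of all tested rows, and DESeq2 and limma after quantile normalization gave 0 as well. At an adjusted p below 0.05 the count was 0 as well, against 0.685% of all. The groups overlapped in each of the 7 genes, whereas 17.1% of all tested rows had groups that did not overlap. The log2 fold change (high minus low) lay above 0 in 6 genes and below 0 in 1, with a median of 0.16 beside 0.02 for all tested rows, and these signs held under every scaling that was tried. The median of the 7 ranged from 0.12 without steer 10-9 to 0.40 without steer 10-8 (0.32 without steer 3-3), and was 0.06 with age as a term and 0.09 with library totals alone. The spread between steers limits what could be seen. The 95% intervals of the fold change stayed within 2-fold in either direction for 5 genes (TIMP1, TIMP2, TIMP3, LOX and LOXL2), and reached beyond 2-fold for TIMP4 and MMP2.

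**Figure D1:**
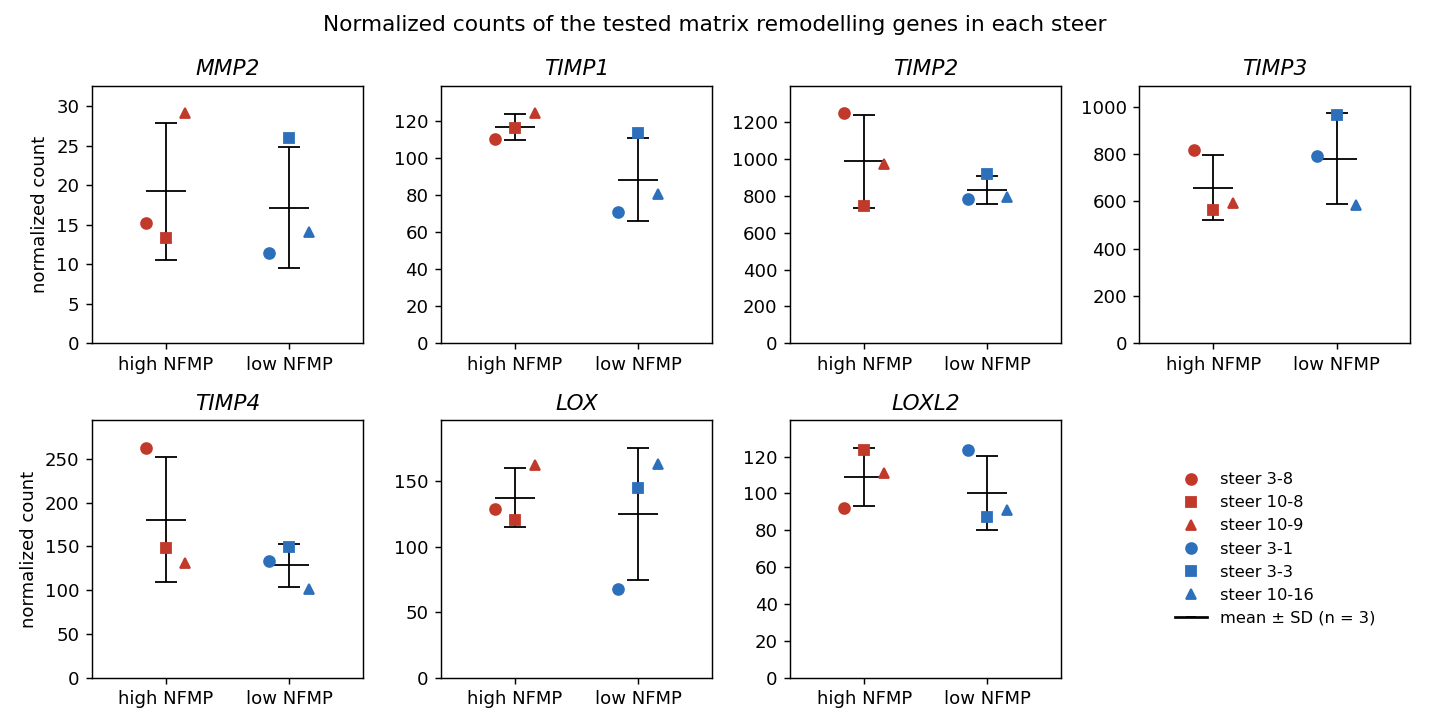
Normalized counts (vertical axis, from 0) of the 7 tested genes in each steer, with high-NFMP steers in red, low-NFMP steers in blue, and black bars for the mean ± SD (n = 3). The points of the groups overlap in every panel, and steer 3-8 is the highest of the 6 steers for TIMP2 (1247) and TIMP4 (262.5).

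MMP2 is gelatinase A, an enzyme made mainly by fibroblasts that cuts basement membrane collagen and denatured collagen. In high-NFMP steers 3-8, 10-8 and 10-9 it was counted 15, 12 and 29 times, and low-NFMP steers 3-1, 3-3 and 10-16 had 12, 28 and 14 counts. Each group held 1 steer with about as many counts as the top steer of the other, and the remaining 4 steers lay close together. The normalized counts were 19.2 ± 8.61 (SD, n = 3) and 17.2 ± 7.68 (SD, n = 3), log2 fold change 0.16 ± 0.53 (SE, edgeR's quasi-likelihood test, adjusted p = 0.93). The 95% interval of the fold change ran from 0.514 to 2.43, the widest of the 7 genes. The sign depended on single steers, since the log2 fold change was -0.26 without steer 10-9 and 0.58 without steer 3-3.

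MMP9, gelatinase B, is known from neutrophils and macrophages. It was counted 1, 3 and 1 times in high-NFMP and 0, 0 and 0 times in low-NFMP animals, so its few reads all came from the high-NFMP group. These 5 reads carry an exact 95% Poisson interval of 1.62 to 11.7, and a count of 0 in a library allows up to 3 counts, which is between 0.174 and 0.179 CPM in the low-NFMP libraries. The interval of the low-NFMP group, 0 to 3.69, overlaps that of the high-NFMP group, so no fold is given. With no filter on low counts, edgeR's adjusted p for MMP9 was 0.539 over 23015 rows. Neutrophil markers were also scarce, with S100A8 between 4.01 and 24.3 normalized counts in a steer.

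MMP14, the membrane-bound activator of MMP2, was counted once in the 6 libraries, in low-NFMP steer 3-3. That single read has an exact 95% Poisson interval of 0.0253 to 5.57 counts, and with so few reads no difference was detectable. Fibroblast markers were present in the same libraries, and decorin (DCN), a collagen-binding proteoglycan of connective tissue cells, lay between 5432 and 8703 normalized counts. In the RefSeq table of ARS-UCD2.0, the span of MMP14 overlaps that of RBM23, a splicing factor gene, which was counted 606, 588 and 748 times in high-NFMP and 521, 590 and 514 times in low-NFMP animals. Its normalized counts did not overlap between the groups, log2 fold change 0.37 ± 0.18 (SE, edgeR unadjusted p = 0.0592, adjusted p = 0.462). Whether reads of one were counted on the other was not tested. The ratio of TIMP2 to MMP14 could not be formed from these counts.

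TIMP1, the secreted inhibitor with a broad range and a growth-factor-like action on cells, was counted 109, 105 and 124 times in high-NFMP and 74, 123 and 80 times in low-NFMP animals. Low-NFMP steer 3-3 lay within the narrow range of the high-NFMP steers and the other low-NFMP steers lay below it. The normalized counts were 117.2 ± 6.96 (SD, n = 3) and 88.5 ± 22.5 (SD, n = 3), log2 fold change 0.40 ± 0.27 (SE, edgeR adjusted p = 0.611). The relative spread was 5.9% in the high-NFMP group and 25.5% in the low-NFMP group. Leaving out steer 3-3 gave the highest value, 0.63 (unadjusted p = 0.0602 by edgeR), and leaving out steer 3-1 the lowest, 0.26, and with age as a term it was 0.20.

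TIMP2 was the member with the most counts, 1231, 670 and 969 in the high-NFMP steers and 818, 995 and 788 in the low-NFMP steers. Steer 3-8 was the highest and high-NFMP steer 10-8 the lowest of all 6, so the high-NFMP group enclosed the low-NFMP group. Normalized, these were 988 ± 252 (SD, n = 3) and 833 ± 76.3 (SD, n = 3), log2 fold change 0.25 ± 0.21 (SE, edgeR adjusted p = 0.681). The 95% interval of the fold change ran from 0.875 to 1.61. Without steer 3-8 the log2 fold change was 0.04, with age as a term it was 0.06, and without steer 10-8 it was 0.44 (edgeR unadjusted p = 0.045, adjusted p = 0.488). Over its 14 alternatives the adjusted p lay between 0.488 and 0.971. CEP295NL, whose span overlaps TIMP2 in the RefSeq table, was counted 22, 26 and 14 times against 12, 8 and 7 times. It was named after its values were seen and passed the p and fold change threshold, with log2 fold change 1.31 ± 0.54 (SE, edgeR adjusted p = 0.364). It missed the threshold without steer 3-8, 10-8, 3-3 or 10-16 and with age as a term (1.502), with log2 fold changes between 1.08 and 1.56 when single steers were omitted.

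TIMP3, the inhibitor that stays bound to the matrix and also blocks ADAM and ADAMTS proteases, was the only tested member with a lower mean in the high-NFMP group. Its counts were 805, 506 and 592 in the high-NFMP steers and 826, 1044 and 578 in the low-NFMP steers. Low-NFMP steer 10-16 lay among the high-NFMP steers and steer 3-8 among the low-NFMP steers. The normalized counts were 657 ± 138 (SD, n = 3) and 780 ± 191 (SD, n = 3), log2 fold change -0.25 ± 0.22 (SE, edgeR adjusted p = 0.701). The first number of the steer label, whose meaning is not given in the labels, moved with TIMP3. The 3 steers labelled 3 (3-8, 3-1 and 3-3) had between 790.4 and 966.1 normalized counts and the 3 labelled 10 between 562.3 and 593.7. Within the label number, the log2 ratio of high to low NFMP was -0.11 for number 3 and -0.01 for number 10, and with the number as a term the log2 fold change was -0.06, whereas with age as a term it was -0.44. Without steer 3-8 it was -0.43, and without steer 3-3 it was -0.07.

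TIMP4, the inhibitor known for its restricted expression in heart, skeletal muscle and fat, had the largest fitted difference among the 7 genes. It was counted 259, 133 and 131 times in high-NFMP and 140, 162 and 100 times in low-NFMP animals. Steer 3-8 stood far above the other 5, of which both high-NFMP steers lay within the range of the low-NFMP steers. The normalized counts were 180.6 ± 71.4 (SD, n = 3) and 128.3 ± 25.0 (SD, n = 3), log2 fold change 0.49 ± 0.29 (SE, edgeR adjusted p = 0.551). Without steer 3-8 the log2 fold change was 0.12 and its unadjusted p by edgeR was 0.664. With age as a term it was 0.21 (edgeR unadjusted p = 0.591, adjusted p = 0.907) and with the label number as a term 0.68 (edgeR unadjusted p = 0.0133, adjusted p = 0.332), the highest and the lowest adjusted p of the 14 alternatives. Within the label number, the log2 ratio was 0.89 for number 3, where steer 3-8 is the only high-NFMP steer, and 0.47 for number 10, which leaves steer 3-8 out. In number 10 the only low-NFMP steer is 10-16, which had the lowest TIMP4 value of all steers (100.96 normalized counts).

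The adipocyte markers were also high in steer 3-8. With all steers, 7 of 7 had a log2 fold change above 0, with a median of 0.69, and 3 had an unadjusted p below 0.05 by edgeR, against 11.5% of all tested rows. The groups did not overlap in 3 of the 7, against 17.1% of all. In that fit 0 passed the p and fold change threshold or an adjusted p below 0.05. The count past that threshold was 1 by DESeq2, 2 by edgeR with the label number as a term, 3 without steer 10-9, and 1 each without steer 10-8 or 3-1. Without steer 3-8, 4 of the 7 lay above 0 and 3 below, with a median of 0.20 and 0 past the threshold, and with age as a term 5 lay above 0 and 2 below. Of all listed genes, the one with the profile most like that of TIMP4 over the 6 steers was ADIPOQ, the adipokine adiponectin. Likeness was the root mean square difference of log2 normalized counts after each gene was centred on its mean, and it was 0.16 for this pair, where the centred values of TIMP4 themselves had a root mean square of 0.41. This rested on steer 3-8, without which the difference was 0.18 where TIMP4 itself varied by 0.20, and 5 genes were nearer than ADIPOQ. ADIPOQ had 1608, 961.3 and 1016 normalized counts in the high-NFMP steers and 705.2, 946.7 and 661.3 in the low-NFMP steers. The part of adipocyte RNA in the TIMP4 values was not tested.

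Ratios of counts within a library were compared for the 6 pairs of inhibitors after the counts had been seen. The groups did not overlap in 1 of the 6, TIMP4 to TIMP3, a share close to the 17.1% of single tested rows without overlap. The ratio of TIMP4 to TIMP3 counts was 0.322, 0.263 and 0.221 in high-NFMP steers 3-8, 10-8 and 10-9 and 0.169, 0.155 and 0.173 in low-NFMP steers 3-1, 3-3 and 10-16. The difference of the mean log2 ratio was 0.68 with all steers and 0.54 without steer 3-8. Because the ratio was chosen after its values were seen, no test was made. The ratio of TIMP2 to MMP2 was 82.1, 55.8 and 33.4 against 68.2, 35.5 and 56.3, and overlapped widely. A ratio within a library does not depend on the scaling of that library.

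Of the inhibitors, 3 share their place in the genome with a synapsin gene, a pairing known from other mammals. In the RefSeq table of ARS-UCD2.0 the span of TIMP1 overlaps SYN1, that of TIMP4 overlaps SYN2 and that of TIMP3 overlaps SYN3. Synapsins coat synaptic vesicles in neurons, and each of the 3 had more counts than its partner in every steer. SYN1 was counted 270, 341 and 457 times in high-NFMP and 271, 327 and 320 times in low-NFMP animals, which was 2.48 to 4 times the count of TIMP1. SYN2 was counted between 464 and 717 times, 2.68 to 5.12 times the count of TIMP4. SYN3 was counted between 1381 and 1994 times, 1.91 to 2.80 times the count of TIMP3. The sources used here do not say whether counting used the strand, so reads of an inhibitor and its synapsin cannot be told apart with certainty. SYN3 had log2 fold change -0.0016 ± 0.18 (SE), SYN2 0.14 ± 0.20 (SE) and SYN1 0.33 ± 0.22 (SE), with adjusted p between 0.612 and 0.998 by edgeR.

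LOX, the lysyl oxidase that starts the crosslinking of collagen and elastin, was counted 127, 108 and 162 times in high-NFMP and 71, 156 and 161 times in low-NFMP animals. Low-NFMP steer 3-1, the oldest of the 6, was the lowest, and the other 5 lay close together in both groups. The normalized counts were 137.1 ± 22.4 (SD, n = 3) and 125 ± 50.2 (SD, n = 3), log2 fold change 0.13 ± 0.31 (SE, edgeR adjusted p = 0.897). Without steer 3-1 the log2 fold change was -0.17. DCN had the profile most like that of LOX, with a root mean square difference of 0.27 where LOX itself varied by 0.42. Without steer 3-1 the difference was 0.20, more than the 0.17 by which LOX itself varied.

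LOXL2, a lysyl oxidase-like enzyme that also acts on the collagen of basement membranes, varied least over all steers among the tested members. The measure was the root mean square of centred log2 normalized counts (0.21 for LOXL2), whereas TIMP2 and TIMP3 had a smaller SE of the fold change. LOXL2 was counted 91, 111 and 111 times in high-NFMP and 129, 94 and 90 times in low-NFMP animals. The highest steer and the lowest steer both belonged to the low-NFMP group. The normalized counts were 109 ± 15.7 (SD, n = 3) and 100.4 ± 20.0 (SD, n = 3), log2 fold change 0.12 ± 0.27 (SE, edgeR adjusted p = 0.897). The 95% interval of the fold change ran from 0.729 to 1.61. The log2 fold change was 0.02 without steer 3-3, 0.29 without steer 3-1, 0.22 without steer 3-8, 0.05 without steer 10-8 and 0.40 with age as a term.

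LOXL1, the member of the family known for its role in elastic fibres, was too rare to be tested. It was counted 17, 0 and 3 times in high-NFMP and 1, 4 and 0 times in low-NFMP animals. Of its 25 reads, 17 (68%) came from steer 3-8, the steer with the high adipocyte marker sum, and without that steer the groups held 3 and 5 reads. When all rows were fitted without a filter, its estimate was 1.97 ± 1.20 on the log2 scale (SE, edgeR adjusted p = 0.626).

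**Figure D2:**
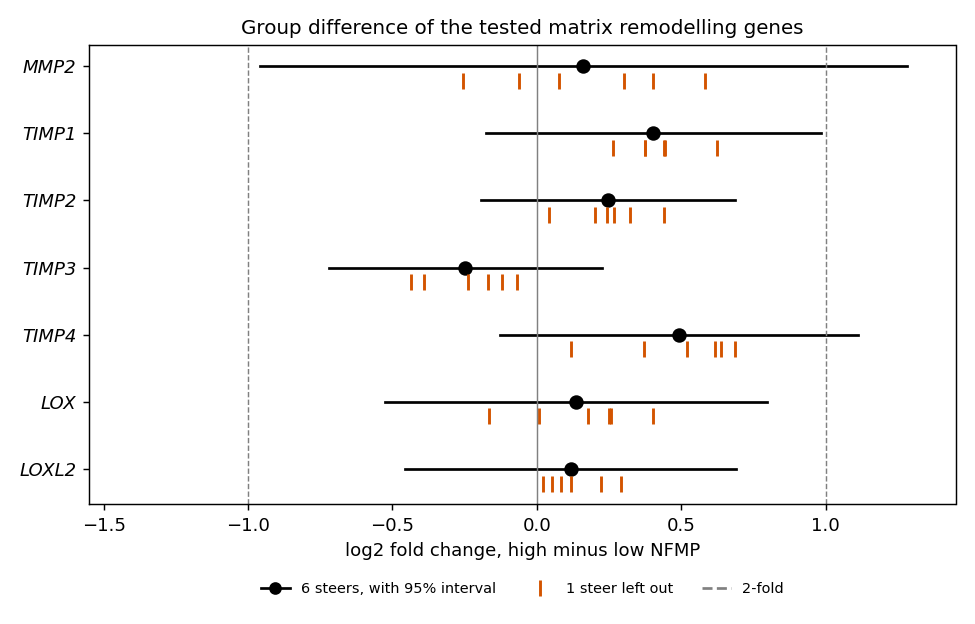
Log2 fold change (high minus low NFMP, horizontal axis) of the 7 tested genes, with the estimate from 6 steers as a black point, its 95% interval as a line and the estimates with 1 steer left out as orange ticks. Every interval crosses 0, and those of MMP2 and TIMP4 reach past the dashed 2-fold line.

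The other genes that cut, activate, inhibit or crosslink the matrix were read from the same fit. In 6 lists with 77 genes, 58 genes were tested, and 1 was higher and 0 were lower past the p and fold change threshold, against 3.9% of all tested rows. At an unadjusted p below 0.05 there were 4, with ADAMTS15, ADAMTS9 and PCOLCE among them, at an adjusted p below 0.05 there were 0, and 6 had groups that did not overlap, against 17.1% of all. With all 6 steers, each of these shares lay at or below that of all tested rows. Their median log2 fold change was 0.05, -0.01 with library totals alone and between -0.004 and 0.108 with single steers omitted, where 2 to 8 genes had an unadjusted p below 0.05.

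The 1 higher gene was ADAMTS15, a protease of the family that cuts aggrecan and versican. It had 35.5, 17.8 and 36.1 normalized counts in the high-NFMP steers and 10.5, 13.9 and 6.06 in the low-NFMP steers. The groups did not overlap, at low counts. The estimate was 1.54 ± 0.52 on the log2 scale (SE, edgeR unadjusted p = 0.00952, adjusted p = 0.251), and between 1.31 and 1.83 with each steer left out. With age as a term it was 1.39 and its unadjusted p by edgeR was 0.0542. Among the 15 tested ADAMTS proteases, 9 had a log2 fold change above 0 and 6 below, with a median of 0.09, and this was 7 and 8 without steer 3-8 and 6 and 9 without steer 3-3. ADAMTS9, the member of that list with the most counts, had 1401, 1338 and 1623 against 1305, 670.9 and 923.8 normalized counts and a log2 fold change of 0.59 (adjusted p = 0.324 by edgeR).

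Of the 19 other matrix metalloproteinases, 14 were among the rows and 5 were tested, with log2 fold changes between 0.26 and 1.04 and a median of 0.50 (0.33 without steer 10-16). With all steers none of the 5 passed an unadjusted p below 0.05 by edgeR, and 1 did without steer 3-8. MMP16, a membrane-bound enzyme and the one with the most counts, had 260.4, 271.2 and 358 normalized counts in the high-NFMP steers and 210.5, 287.8 and 242.3 in the low-NFMP steers, and the groups overlapped. The collagenase MMP1 and the stromelysin MMP3 were at or below 4.05 normalized counts in each steer.

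Among the 8 genes of activation and inhibition, 0 passed the threshold by edgeR, and the median log2 fold change was 0.06, with either sign (-0.06 to 0.15) when single steers were omitted. BSG, the inducer of metalloproteinases also called basigin and the one with the most counts, had 4483, 5742 and 4743 against 7604, 4702 and 5705 normalized counts. RECK, a membrane-anchored inhibitor, had 141.9, 82.2 and 41.1 against 120.6, 152.7 and 142.4, log2 fold change -0.65 ± 0.36 (SE, edgeR adjusted p = 0.531), and it passed the p and fold change threshold without steer 3-8, at -1.17.

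The protease plasmin of the plasminogen system can activate metalloproteinases. In the list of this system 5 genes were tested, of which 1 lay above 0 and 4 below, with a median log2 fold change of -0.37. By edgeR 1 of them had an unadjusted p below 0.05, against 11.5% of all tested rows. The median ranged from -0.67 without steer 3-8 to -0.07 without steer 3-1, and was -0.095 with the label number as a term. SERPINE2, a serine protease inhibitor with the most counts of that list, had 177.3, 168.9 and 113.3 normalized counts in the high-NFMP steers and 273.7, 177.7 and 142.4 in the low-NFMP steers. The groups overlapped, with steer 3-1 the highest. The log2 fold change was -0.37 ± 0.28 (SE, edgeR adjusted p = 0.652).

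Of the 15 genes of collagen processing and crosslinking, all were tested, 4 lay above 0 and 11 below, and the median log2 fold change was -0.06. Without steer 10-8 this turned to 9 above and 6 below (median 0.09), and without steer 3-3 to 8 and 7 (median 0.02). The remaining lysyl oxidase-like genes LOXL3 and LOXL4 had log2 fold changes of -0.09 ± 0.32 (SE) and -0.01 ± 0.42 (SE). PCOLCE, an enhancer of procollagen cleavage, had 217.9, 412.3 and 207.6 against 190.4, 179.5 and 170.6 normalized counts, log2 fold change 0.63 ± 0.27 (SE, edgeR unadjusted p = 0.033, adjusted p = 0.388). P4HA3, a collagen prolyl hydroxylase subunit and the gene of this list with the most counts, had log2 fold change -0.06 ± 0.18 (SE). Of the 10 matrix substrates, 7 lay above 0 and 3 below, with a median of 0.20 and none at an unadjusted p below 0.05 by edgeR with all steers. The median was 0.10 without steer 10-8, 0.35 without steer 10-9, 0.09 with age as a term and 0.10 with library totals alone, and 2 genes had an unadjusted p below 0.05 without steer 10-9 and 1 without steer 3-3. COL4A2, a basement membrane collagen chain, had the most counts among them and log2 fold change 0.11 ± 0.18 (SE).

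The nearest profiles of the remaining members came from several lists. MYH11, a smooth muscle myosin, was nearest to both MMP2 (root mean square difference 0.24, where MMP2 itself varied by 0.45) and TIMP1 (0.15, own 0.295). VWF, an endothelial gene, was nearest to TIMP2 (0.14, own 0.25), but without steer 3-8 it differed by 0.155, more than the 0.147 by which TIMP2 itself varied. ADAMTS12 was nearest to TIMP3 (0.10, own 0.29). The nearest to LOXL2, ADAMTS20, differed by 0.19, hardly less than a flat profile would (0.21). In each of the 7 tested members, another gene was nearest when at least 1 of the steers was omitted. These are descriptions over 6 libraries among 92 or 93 candidate genes with a mean of at least 50 normalized counts.

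The marker lists of other cell types were summed in each steer. The fibroblast and fibro-adipogenic progenitor markers summed to 9829, 9503 and 9907 normalized counts in the high-NFMP steers and 6653, 8195 and 9421 in the low-NFMP steers. The groups did not overlap in this sum, most of which came from DCN, but they overlapped in DCN itself. Of the 7 markers, 5 had a log2 fold change above 0 and 2 below, with a median of 0.31. Without steer 10-8 this turned to 3 above and 4 below, with a median of -0.03. PDGFRA, the receptor that defines these progenitors, had the opposite order to the sum, with 362.8, 337.8 and 233.7 against 383.7, 403.5 and 540.1 (log2 fold change -0.51, adjusted p = 0.408 by edgeR). The endothelial sum was 1681 ± 296 (SD, n = 3) against 1533 ± 181 (SD, n = 3), with the most counts on PECAM1. Among the 7 endothelial markers, 4 had a log2 fold change above 0 and 3 below, with a median of 0.02. The groups did not overlap in 2 of the 7, against 17.1% of all tested rows. In CLDN5 the high-NFMP steers lay above the low-NFMP steers, with log2 fold change 0.93 ± 0.31 (SE, edgeR unadjusted p = 0.00987, adjusted p = 0.255). In CDH5 they lay below, with log2 fold change -0.16 ± 0.22 (SE, edgeR adjusted p = 0.813). Past the p and fold change threshold, 1 endothelial gene was counted with the label number as a term, and 1 each without steer 10-8 or 3-3. The pericyte and smooth muscle sum was 1758 ± 415 (SD, n = 3) against 1460 ± 275 (SD, n = 3), led by ACTA2. The macrophage sum was 554.1 ± 173 (SD, n = 3) against 506.8 ± 175 (SD, n = 3), led by CD163. Among the 6 macrophage markers, 4 had a log2 fold change above 0 and 2 below, with a median of 0.41. The 2 below were CD163 (-0.56) and CD68 (-0.10). AIF1, another gene of that list, was the 1 marker past the p and fold change threshold by edgeR with all steers and no added term. It had 116.5, 57.8 and 38.1 against 32.5, 48.1 and 22.2 normalized counts and a log2 fold change of 1.04 (edgeR adjusted p = 0.388). It missed the threshold without steer 3-8 (0.475) and with age as a term (0.46). It also missed it without steer 3-1 (1.00) or 10-16 (0.83), with library totals alone (0.97) and with limma (0.88), where the log2 fold change stayed nearer to that of all steers. The neutrophil sum lay between 6.7 and 33.4 in a steer. MYF5, the only gene of the satellite cell list with a row, had 39.5, 28.9 and 10.0 against 6.70, 5.55 and 1.01 normalized counts. The groups did not overlap in MYF5. It did not pass the filter on low counts (89 reads in all), so it was not tested. The 17.1% of tested rows without overlap therefore does not cover it. The part of these cell types in the values of the 10 genes was not tested.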

How the data were processed

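LT muscle of 6 steers was measured by 3′ mRNA sequencing, with 1 library per steer and the NFMP group taken from its label. The values deposited by the authors are whole-number read counts for each gene symbol, with no normalization. Their methods describe Tophat2 with HTSeq, and also Bowtie2 with unique and multiple alignments, and leave unclear which produced these counts. No value per length was computed, so where genes are set side by side the values are read counts and not levels. Symbols that occur more than once (176 extra rows) stayed separate.

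R 4.3.3 and edgeR 4.0.16 were used. The filter on low counts (minimum count 10, minimum total 15) left 15039 rows, with at least 99.85% of the counts of each library. TMM factors lay between 0.915 and 1.083 and the biological coefficient of variation was 25.1%. The quasi-likelihood test with robust dispersions was followed by Benjamini-Hochberg adjustment over all tested rows. A gene was called, by the threshold of the paper, where its fold change exceeded 2 and its unadjusted p was below 0.05. Standard errors came from the F statistic and 95% intervals from its degrees of freedom. Poisson intervals and the floor of 3 counts cover counting error only, because reads that carry no molecular identifier can be copies of 1 molecule.

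The members and gene lists were chosen with earlier results of these data known. Named by rule were the 10 members, the called genes of each list, the gene with the most counts in each list, and the nearest profiles (log2 of normalized count plus 2). Other genes, such as the overlapping genes, RECK and PCOLCE, were named after their values were seen. List genes without a row are not analysed here, and 1 gene of the lists is not reported here. The RefSeq table of ARS-UCD2.0 was used for names and for which gene spans overlap, and none of its coordinates are printed because the paper names another build. As alternatives, the filter was dropped or raised to 10 counts in every library, and TMM was replaced by RLE factors or library totals. DESeq2 1.42.0 and limma 3.58.1 (quantile normalization of log2 of count plus 1) were run, the label number or age was added to the model, and single steers were omitted. The alternatives for AIF1, CEP295NL, the ratio of TIMP4 to TIMP3, the nearest profiles and the direction of the lists were chosen after seeing the data. The tests of edgeR, DESeq2 and limma were tried on simulated counts with known changes.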

Additional observations from a re-analysis of the deposited data

How the results depend on the processing

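No member was called under any of the 14 alternatives, and at most 1 had an unadjusted p below 0.05 in any of them. The sign of the log2 fold change held in every alternative for 5 of the 7 tested members. MMP2 turned to -0.05 with age as a term, and ranged from -0.255 to 0.582 with a steer left out. LOX turned to -0.169 with age as a term, and ranged from -0.165 to 0.401 with a steer left out. The log2 ratio of TIMP2 to MMP2 (0.06, high minus low) ranged from -0.253 to 0.395 with a steer left out and was -0.211 without steer 3-3, and that of LOX to TIMP1 (-0.215) ranged from -0.46 to 0.074. The cause of these reversals was not tested. Over all rows, 969 of 23015 were called without a filter and 364 of 13248 with at least 10 counts in every library, against 586 of 15039. The part of rows with low counts in this difference was not tested. Of the other matrix remodelling genes, 0 were called with at least 10 counts in every library, where ADAMTS15 was not tested, and 3 with age as a term, with ADAMTS9 and RECK among them. With a steer left out, between 1 and 3 were called. Without steer 10-16 these included ADAMTS15 and PLAU, and without steer 3-8 they were ADAMTS15 and RECK. MMP9, MMP14 and LOXL1 had 5, 1 and 25 reads in all and were tested only without a filter, where 0 were called.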
